A study of Mus musculus with 12 samples.

Results

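The 39 genes of the mouse Hox clusters were described in teratomas grown from R1 embryonic stem (ES) cells that carried different forms of Dnmt3L. They were taken as every symbol in the count files that reads Hoxa, Hoxb, Hoxc or Hoxd followed by a number from 1 to 13 and nothing else, 39 of 38986 symbols listed. The Hoxa cluster gave 11 members, Hoxb 10, Hoxc 9 and Hoxd 9. Each gene is described by its cluster and by its paralog number, which counts from the end of the cluster used at the head of the embryo.

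Hox genes encode homeodomain transcription factors that tell cells where they lie along the body axis. Within a cluster, low-numbered paralogs are switched on first and reach furthest forward, into the hindbrain and neck, while high-numbered paralogs are restricted to the lower trunk, the limbs, the kidneys and the tail. In ES cells the clusters are silent under Polycomb marks, and retinoic acid, Wnt and Fgf signals open them step by step during differentiation. A teratoma is a disordered tumour of many tissue types, so its Hox transcripts give a mixture over the axial levels that its cells have adopted.

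All cells were R1 mouse ES cells infected with the lentiviral vector pEZ-Lv235, in which a CAG promoter drives the insert, selected with puromycin and grown in serum with LIF. ET carried the empty vector, WT the unmutated Dnmt3L, and K238R and K412R forms of Dnmt3L with a lysine changed to arginine so that it could not be acetylated there. From each line, 5000000 cells were injected under the skin of male NOD-PrkdcEM1 mice 8 weeks of age, which are immunodeficient, and teratomas were taken at day 21. Every group had 3 libraries, 12 in all, and the labels do not say whether a line was 1 clone or whether each library came from its own mouse, so p-values measure the spread between these libraries. The vector backbone, the selection and the host strain were shared by all 4 groups. Host cells that grow into a teratoma are also mouse cells and could not be told from the graft by these counts.

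Library totals lay between 16957677 and 18546100 counts, and 3 counts in a library corresponded to 0.162 to 0.177 CPM (counts scaled to 1000000 per library). Dnmt3l, read first as a check of the labels, had 39, 11 and 137 counts for ET, 2941, 3643 and 3581 for WT, 35, 20 and 10 in the K238R-labelled libraries and 699, 677 and 463 in K412R. The K238R-labelled libraries thus lay at the level of ET (mean 1.18 ± 0.675 against 3.49 ± 3.66 CPM, SD, n = 3) and below WT by 7.37 on the log2 scale (adjusted p = 0.00251, edgeR), and they are called the K238R-labelled libraries throughout, after their label alone. K412R was also below WT (log2 fold change -2.485, adjusted p = 0.0367, edgeR), a call lost in 6 of 12 fits that each left out 1 library. K412R and WT thus differed in Dnmt3l RNA as well as in the lysine. ET replicate 2 stood apart from the other ET libraries in its Hox genes, and leaving it out also changed the calls over all genes. The paper reports an outlier in the control group, and its text does not name the library. Against ET, counts of members called after adjustment or by the study's 2-fold criterion are therefore given with and without ET replicate 2. So are medians over all tested members. Other medians, counts at unadjusted p, counts without overlap and fold changes of single genes use all 3 ET libraries unless said otherwise. ES cell markers were low in these tumours, as their 10 genes summed to 21.8 to 159 CPM over the 12 libraries, whereas 10 neuronal genes summed to 2408 to 4208 CPM.

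Of the 39 members, 32 passed the filter on low counts and were tested among 18405 genes. The other 7 were Hoxd1 at one end of its cluster and Hoxa13, Hoxb13, Hoxc12, Hoxc13, Hoxd12 and Hoxd13 at the other, genes that in the embryo mark the tail, the digits, the hindgut and the genital tubercle. None of these 7 exceeded 13 counts in any library. Hoxa13 had 3 counts over all 12 libraries and Hoxd1 had 5. Differences between groups were not tested for these 7 members in the fits below. Hoxc13, with 6, 13 and 3 counts in ET and 0, 1 and 3 in WT, entered the test and met the 2-fold criterion only under some of the other settings, on these few counts.

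The start regions of 4 members that carry the results below are shown to make their sequence context visible, since Dnmt3L acts on DNA methylation at CpG sites. They are the 250 bases before and 50 bases after an annotated start in RefSeq (build GRCm38.p6, written 5′ to 3′ on the strand of the gene), with every CG in capitals.
Hoxa5 (chr6:52204538-52204837, minus strand, 29 CpG sites): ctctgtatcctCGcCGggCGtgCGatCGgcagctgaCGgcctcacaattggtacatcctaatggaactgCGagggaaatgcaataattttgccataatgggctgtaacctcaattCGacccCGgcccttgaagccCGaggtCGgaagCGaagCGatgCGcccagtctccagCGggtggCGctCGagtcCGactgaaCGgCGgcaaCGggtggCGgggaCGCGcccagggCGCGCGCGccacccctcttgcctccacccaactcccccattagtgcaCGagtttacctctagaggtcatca
Hoxb4 (chr11:96318017-96318316, plus strand, 14 CpG sites): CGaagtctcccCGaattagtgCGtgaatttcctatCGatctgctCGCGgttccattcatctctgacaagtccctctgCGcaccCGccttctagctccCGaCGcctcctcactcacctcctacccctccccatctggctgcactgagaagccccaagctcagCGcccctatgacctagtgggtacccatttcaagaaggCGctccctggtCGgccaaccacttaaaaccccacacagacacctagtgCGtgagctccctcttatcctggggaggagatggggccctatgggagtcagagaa
Hoxc4 (chr15:103034145-103034444, plus strand, 9 CpG sites): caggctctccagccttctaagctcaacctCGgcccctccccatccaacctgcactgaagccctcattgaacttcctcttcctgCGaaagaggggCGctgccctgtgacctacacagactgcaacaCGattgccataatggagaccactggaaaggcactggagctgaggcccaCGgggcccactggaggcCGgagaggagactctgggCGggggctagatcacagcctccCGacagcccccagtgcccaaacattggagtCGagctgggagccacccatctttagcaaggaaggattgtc
Hoxa7 (chr6:52218524-52218823, minus strand, 9 CpG sites): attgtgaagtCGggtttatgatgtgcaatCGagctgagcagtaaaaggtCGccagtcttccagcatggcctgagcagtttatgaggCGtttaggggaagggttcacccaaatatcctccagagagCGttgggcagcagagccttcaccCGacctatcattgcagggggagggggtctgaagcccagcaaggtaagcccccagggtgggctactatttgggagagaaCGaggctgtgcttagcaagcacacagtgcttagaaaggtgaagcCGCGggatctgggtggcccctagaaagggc

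The counts were made on build GRCm39, so these coordinates place only the printed sequence, and methylation was not measured in these libraries. RefSeq entries were found for 22 of the 39 members, with 24 start regions, none for Hoxb9 or Hoxc8. The 24 regions held 4 to 45 CpG sites with a median of 14.5, against a median of 7 over all 32851 start regions of the same length. The Hox start regions were thus richer in CpG than most, with Hoxa13 at the top and Hoxa9, Hoxd4 and a start of Hoxd11 at the bottom. The retinoic acid receptor core site AGGTCA, read on both strands, was in 7 of the 24 regions (29.2%) and in 16.3% of all regions, and those of Hoxa5, Hoxb4 and Hoxc4 printed above hold it. The Cdx core TTTATG was in 5 of 24 (20.8%) and in 11.9% of all, among them Hoxa7. Such matches are descriptions of letters, not of binding. The retinoic acid receptor core site repeated in the same direction was in 0 of the 24 regions, at either spacing searched. Each spacing was found in 0.00913% of all regions.

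Per kilobase of transcript, the members were strongest at paralogs 2 to 5. Hoxb5, which patterns the neck, shoulder and gut neurons, had a mean of 15.3 CPM per kilobase over the 12 libraries. Hoxc4 followed with 14.6, Hoxb3 with 13.6, Hoxa2 with 9.87 and Hoxa3 with 9.64 CPM per kilobase. The level declined towards the posterior end, to 0.204 for Hoxc11 and 0.166 for Hoxa11, and the 7 untested genes all lay below these. Within clusters, the highest mean CPM, not corrected for length, belonged to Hoxa3, Hoxb3, Hoxc4 and Hoxd3. Hoxd contributed least in every library, 3.26% to 15.0% of all Hox counts.

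The summed CPM of the 39 genes was 565, 156 and 381 for ET, 157, 124 and 175 for WT, 253, 309 and 398 in the K238R-labelled libraries and 246, 302 and 222 in K412R. All 3 WT libraries lay below every library labelled K238R or K412R, and ET replicate 2 lay among the WT libraries. The shift was largest in the anterior genes: paralogs 1 to 5 summed to 473, 89.5 and 334 CPM in ET and to 93.3, 82.3 and 98.0 CPM in WT. They reached 224, 220 and 351 CPM in the K238R-labelled libraries and 221, 267 and 194 CPM in K412R. Paralogs 6 to 13 instead gave 91.5, 66.9 and 47.1 CPM for ET, 63.8, 41.8 and 76.6 for WT, 29.7, 89.7 and 47.4 in the K238R-labelled libraries and 25, 35.2 and 28.7 in K412R. For the latter set the K412R libraries were the low ones, below all ET and WT libraries. The division after paralog 5 was chosen after the values were seen, and no test was made of these sums. In bulk RNA, fewer cells that express Hox genes and less Hox RNA per cell cannot be told apart.

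**Figure D1:**
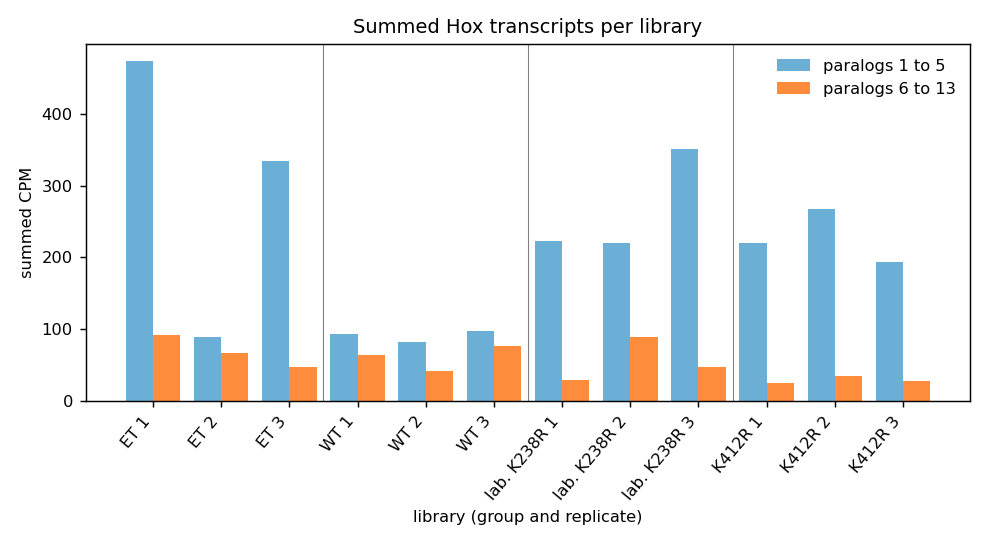
Summed CPM (y axis, linear from 0) of Hox paralogs 1 to 5 (blue) and 6 to 13 (orange) in each of the 12 libraries (x axis, group and replicate, lab. K238R for the K238R-labelled libraries). The blue bars of WT (82.3 to 98.0 CPM) and of ET replicate 2 (89.5 CPM) are low, and those of the other 8 libraries lie between 194 and 473 CPM.

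As a share of all Hox counts of a library, paralogs 1 to 5 made up 83.8%, 57.2% and 87.6% in ET and 59.4%, 66.4% and 56.1% in WT. They made up 88.3%, 71.0% and 88.1% in the K238R-labelled libraries and 89.8%, 88.4% and 87.1% in K412R. The 95% Wilson intervals of these shares were at most 1.96 percentage points to either side, which covers counting error only. The K412R libraries all lay above the WT libraries, while the ET and K238R-labelled groups each held 1 library, replicate 2 in both, with a smaller anterior share than its fellows.

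The replicates of a group disagreed more in Hox genes than in most genes. The biological coefficient of variation, edgeR's estimate of the spread between replicates beyond counting noise, had a median of 39.6% over the 32 tested members and of 16.6% over all genes tested. For the 12120 genes in the same range of mean level the median was 20.9%. It grew with the class of paralog, from a median of 33.3% for the anterior class (1 to 3) to 38.9% for the central class (4 to 8) and 69.7% for the posterior class (9 to 13), whose genes also had the fewest counts.

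**Figure D2:**
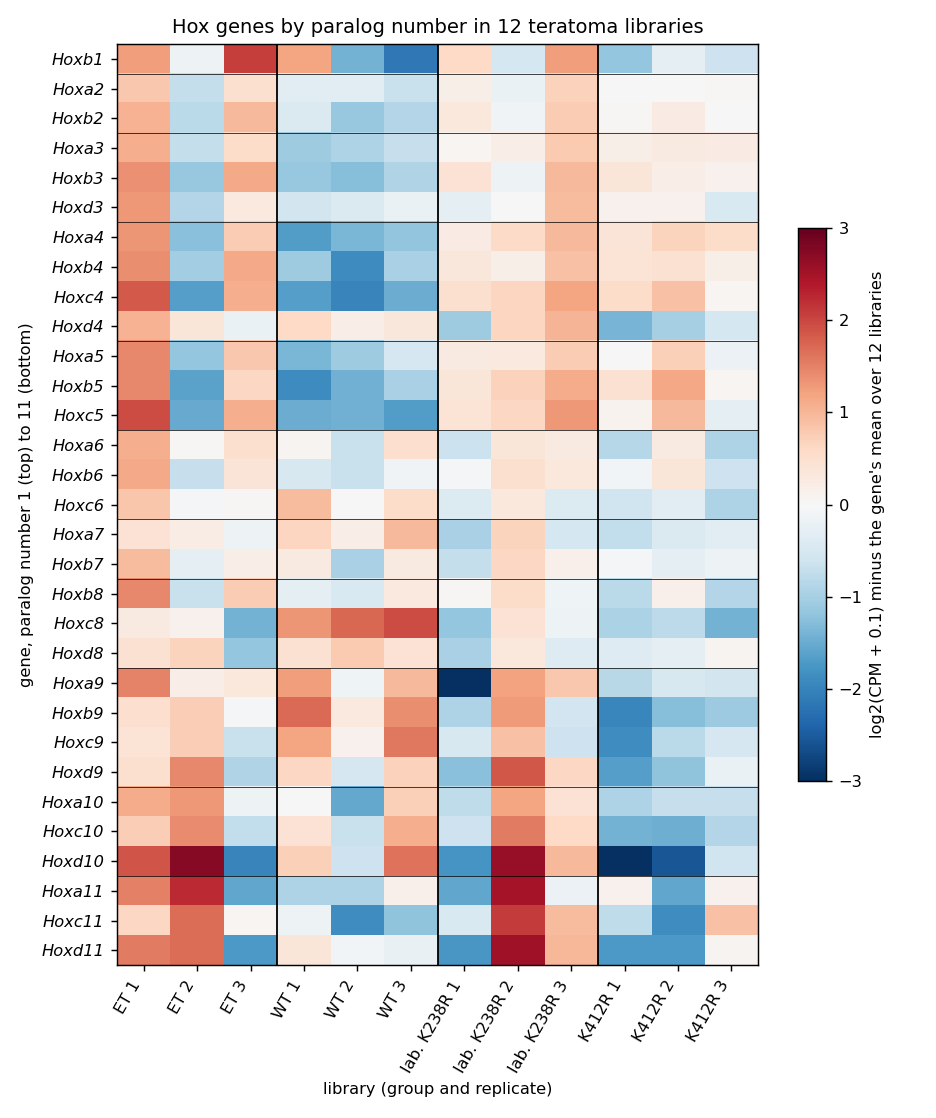
Level of 31 of the 32 tested Hox genes (rows, paralog number 1 at the top to 11 at the bottom, thin lines between numbers) in the 12 libraries (columns, lab. K238R for the K238R-labelled libraries), as log2(CPM + 0.1) minus the mean of the gene over the 12 libraries, with colours limited to 3 on either side. Apart from Hoxd4, paralogs 2 to 5 are blue in WT and in ET replicate 2. Paralogs 10 and 11 are reddest in replicate 2 of ET and of the K238R-labelled libraries, and paralogs 9 and 10 are blue in K412R.

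The comparison of WT with ET asked what added Dnmt3L did to the Hox program. Anterior and neck-level Hox genes had lower mean levels in WT than in ET, by up to 6.42-fold in the genes that met the 2-fold criterion below, and Hoxc8 had a higher one. ET replicate 2 lay near the WT libraries in the lower genes. No member passed the adjusted threshold in the quasi-likelihood test of edgeR, adjusted by Benjamini-Hochberg (0 of 32, where 0.0489% of all genes tested were called). At an unadjusted p under 0.05, 12 members were called (37.5% of the 32, against 29.1% of all genes). DESeq2, run on 39 members without edgeR's low-count filter, called 11 after adjustment, where 6.16% of 31068 genes were called. DESeq2's own filter on low counts was left on, and genes without an adjusted p were counted as not called. By the 2-fold change and unadjusted p under 0.05 that the study used for its gene lists, 11 of 32 members (34.4%) were called, against 6.02% of all genes. They were 10 lower genes (among them Hoxa3, Hoxa4, Hoxa5, Hoxb2, Hoxb3, Hoxb4, Hoxb5, Hoxc4 and Hoxc5, 31.2% of members, against 2.76% of genes) and 1 higher gene (Hoxc8, 3.12% against 3.26%). The median log2 fold change was -0.87 over the 32 members and -0.01 over all genes, and without ET replicate 2 it was -1.12 over the members.

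The difference changed along the clusters. Its median log2 value was -1.06 over the tested genes of paralog 2, -1.35 for paralog 3, -2.04 for paralog 4 and -1.97 for paralog 5. It was -0.53 for paralog 6, 0.04 for paralog 7, 0.42 for paralog 8 and 0.45 for paralog 9, and then -0.88 for paralog 10 and -2.47 for paralog 11. The value for paralog 11 rests on few counts. Hoxd4 gave -0.07, next to -2.02 for Hoxa4, -2.06 for Hoxb4 and -2.68 for Hoxc4.

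**Figure D3:**
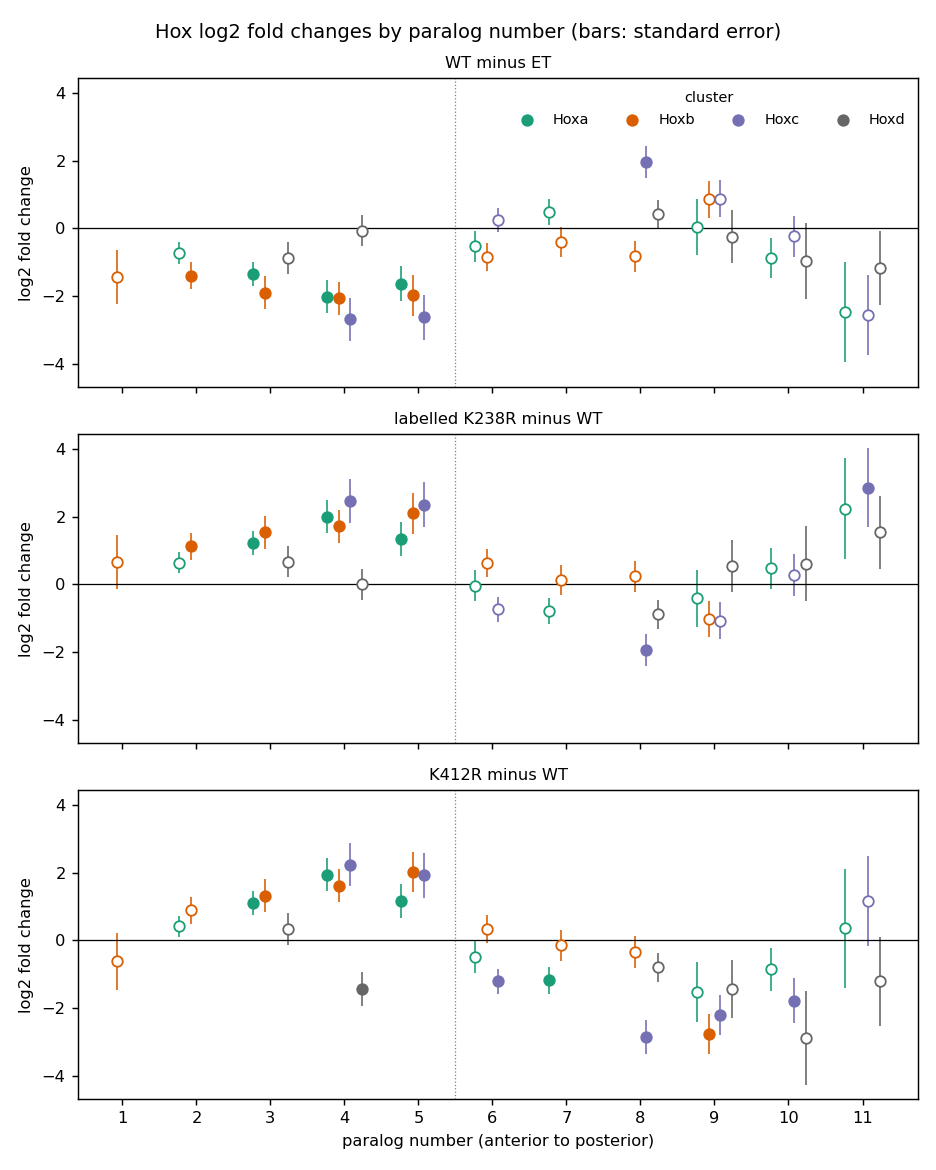
Log2 fold change (y axis, edgeR, bars are the standard error) of 31 of the 32 tested Hox genes by paralog number (x axis) in the 3 comparisons of the study, coloured by cluster, with filled points for genes that met the 2-fold change at unadjusted p under 0.05 and open points for the others. Filled points at paralogs 2 to 5 lie below 0 for WT minus ET and, apart from Hoxd4 in K412R, above 0 for both mutant groups minus WT, and Hoxc8 runs the other way in each panel.

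Hoxc4, a gene of neck and upper thoracic levels, showed the pattern most clearly. It stood at 77.9, 6.84 and 46.4 CPM for ET, 6.86, 5.46 and 7.70 for WT, 30.4, 34 and 49.6 in the K238R-labelled libraries and 32.0, 40.2 and 22.8 in K412R. WT and ET replicate 2 were low and the other 8 libraries high, so the WT and ET groups overlapped although their means differed by 6.42-fold (log2 fold change -2.68, standard error, SE, of 0.64 and adjusted p = 0.100 in edgeR). Hoxc5, its neighbour, had 28.4, 2.48 and 15.5 CPM in ET against 2.53, 2.62 and 2.22 in WT (log2 fold change -2.62, SE 0.67, adjusted p = 0.100). In the K238R-labelled libraries it had 9.65, 11.3 and 18.0 CPM and in K412R 7.80, 14.3 and 5.89 CPM. Transcripts of Hoxc4, Hoxc5 and Hoxc6 are known to share a start and exons, so the division of reads among them is uncertain.

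In Hoxb, Hoxb5 had 61.3, 7.37 and 34.6 CPM in ET and 6.02, 8.2 and 11.5 CPM in WT (log2 fold change -1.97, SE 0.60, adjusted p = 0.110). Its levels were 29.0, 36.1 and 48.8 CPM in the K238R-labelled libraries and 30.9, 50.4 and 23.5 CPM in K412R, all above WT. Hoxb4, known from the neck vertebrae and from the growth of blood stem cells, had 29.8, 5.48 and 24.9 CPM in ET and 5.40, 3.01 and 5.76 CPM in WT (log2 fold change -2.06, adjusted p = 0.100). ET replicate 2 again lay within the WT range, as it did for Hoxb3, a hindbrain gene with 74.9, 13 and 63.7 CPM in ET against 13, 11.7 and 15.3 CPM in WT (log2 fold change -1.89, adjusted p = 0.102). Hoxb2, which acts in the hindbrain segments that form the facial nerve, had 28.0, 7.67 and 26.6 CPM in ET and 10, 6.08 and 7.30 CPM in WT (log2 fold change -1.39, adjusted p = 0.105).

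In Hoxa, Hoxa4 had 26.0, 4.25 and 17.3 CPM in ET and 3.15, 3.90 and 4.45 CPM in WT (log2 fold change -2.02, SE 0.48, adjusted p = 0.100). Hoxa5, needed for the airways and lung, had 37.5, 6.13 and 24.1 CPM in ET and 5.28, 6.47 and 9.70 CPM in WT (log2 fold change -1.63, adjusted p = 0.110). Hoxa3, needed for the thymus and the throat skeleton, had 48.3, 13.8 and 32.9 CPM in ET and 10.7, 11.9 and 13.9 CPM in WT (log2 fold change -1.35, adjusted p = 0.101). In these 3 genes, too, ET replicate 2 was close to WT. Hoxd3, the strongest gene of its cluster, had 15.9, 3.42 and 7.89 CPM in ET and 4.33, 4.68 and 5.59 CPM in WT, which overlap (log2 fold change -0.87, adjusted p = 0.228).

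Hoxc8, which patterns the lower neck and thorax and motor neurons of the forelimb level, was the member higher in WT. It stood at 2.22, 2.00 and 0.612 CPM in ET and at 4.67, 6.24 and 7.30 CPM in WT, without overlap (log2 fold change 1.95, SE 0.47, adjusted p = 0.100). Between WT and ET, 2 members did not overlap (6.25%), against 20.8% of all genes tested, namely Hoxc8 and Hoxc11. Hoxc11, at 8, 18 and 5 counts in ET and 4, 0 and 1 counts in WT, was close to the counting floor.

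ET replicate 2 decided how many members, and how many of all genes, were called. With it left out, 15 members passed the adjusted threshold in edgeR, where 30.8% of all genes passed (0.0489% with it). They were 14 lower members and Hoxc8, and among the 14 were the lower genes named above, with Hoxa2, Hoxb6, Hoxb8 and Hoxd3. Without WT replicate 1 the count was 3 (among them Hoxb1 and Hoxc8, with 6.97% of all genes), and without both libraries it was 14 (37.4% of all genes). By the 2-fold criterion the count was 8 without ET replicate 1 (4.76% of all genes) and 15 without ET replicate 2 (13.4% of all genes). Without ET replicate 2, the log2 fold changes of the 9 lower genes named lay between -3.18 at Hoxc4 and -1.70 at Hoxa3.

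Markers of other tissues moved with these groups, and their part in the Hox differences was not tested. The 10 genes fixed as fibroblast and mesenchyme markers, none of them at 0, summed to 3405, 5181 and 2310 CPM in ET, 3969, 5877 and 3961 CPM in WT, 1980, 2445 and 1868 CPM in the K238R-labelled libraries and 3119, 2476 and 3651 CPM in K412R. The 3 WT libraries and ET replicate 2 thus had the 4 highest sums. The 10 skeletal muscle genes, none at 0, summed to 160 to 514 CPM in ET, 400 to 3269.5 CPM in WT, 36.0 to 789 CPM in the K238R-labelled libraries and 239 to 297 CPM in K412R, with WT replicates 2 and 3 far above the rest. The 16 hindbrain and spinal cord genes summed to 203 to 293 CPM in ET, 180 to 209 CPM in WT, 248 to 351 CPM in the K238R-labelled libraries and 188 to 208 CPM in K412R. In K412R this sum lay in the WT range and the Hoxa, Hoxb and Hoxc genes of paralogs 3 to 5 lay above WT, and no relation between them was tested. The 10 genes of residual pluripotent cells, none at 0, summed to 80.6, 81.6 and 159 CPM in ET and 79.4, 26.3 and 21.8 CPM in WT. Their median log2 fold change was -1.97, and 5 of the 10 were lower in WT by the 2-fold criterion, where 2.76% of all genes were.

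The K238R-labelled libraries had more of the anterior Hox transcripts than WT and less Hoxc8. Against WT, 0 of 32 members passed the adjusted threshold with edgeR (0.223% of all genes were called), 11 had an unadjusted p under 0.05 (34.4%, against 17.5% of all genes) and 7 of 39 passed with DESeq2 (2.53% of all genes). By the 2-fold criterion 11 members (34.4%) were called, against 5.23% of all genes. The 10 higher genes (31.2%, against 1.67%) were Hoxa3, Hoxa4, Hoxa5, Hoxb2, Hoxb3, Hoxb4, Hoxb5, Hoxc4, Hoxc5 and Hoxc11, and Hoxc8 was the lower one (3.12%, against 3.55%). The ranges of 13 members (40.6%) did not overlap, against 24% of all genes. This comparison and that of WT with ET share the WT libraries, so a low or high WT value enters both.

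Hoxc4 was higher by 2.46 on the log2 scale (SE 0.64, adjusted p = 0.108), Hoxc5 by 2.35 (adjusted p = 0.127), Hoxb5 by 2.10 (adjusted p = 0.133) and Hoxa4 by 2.00 (adjusted p = 0.100), all from edgeR. Hoxa4 stood at 12.1, 15.2 and 20.2 CPM in these libraries, all above the WT libraries. Hoxb3 (38.7, 25.9 and 56.1 CPM), Hoxb4 (14.4, 12.8 and 20.9 CPM) and Hoxb2 (17, 12.6 and 23.2 CPM) also lay above all WT libraries. Hoxa3 (23.4, 26.1 and 39 CPM) and Hoxa5 (16.4, 16.8 and 23.2 CPM) did so as well. Hoxd3 did not separate, with 5.23, 6.50 and 12.4 CPM and a log2 fold change of 0.67 (adjusted p = 0.445). Hoxc8, at 0.755, 2.5 and 1.63 CPM, lay below all WT libraries (log2 fold change -1.94, SE 0.47, adjusted p = 0.100).

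Posterior genes varied strongly among the K238R-labelled libraries. Hoxd10, which acts in the lumbar spinal cord and hindlimb, had 5, 137 and 44 counts in them, next to 81, 141 and 4 for ET, 35, 13 and 67 for WT and 1, 2 and 13 in K412R. Hoxc10, of the same axial level, had 2.32, 10.9 and 5.48 CPM in these libraries, 6.08, 9.91 and 2.11 CPM in ET, 4.89, 2.23 and 7.82 CPM in WT and 1.28, 1.24 and 1.91 CPM in K412R. Replicate 2 of ET and of the K238R-labelled libraries held the 2 highest values of both genes. The same was seen for the paralog 11 genes that shape the forearm and kidney: Hoxa11 had 13, 22 and 0 counts in ET and 0, 28 and 3 in the K238R-labelled libraries, and Hoxd11 had 25, 26 and 1 and 1, 52 and 17 counts. Hoxc11, with 3, 26 and 11 counts in the K238R-labelled libraries against 4, 0 and 1 in WT, gave a log2 fold change of 2.84 (SE 1.16, adjusted p = 0.242), which rests on these few counts (K412R had 2, 0 and 10). Without replicate 2 of the K238R-labelled libraries, the 2-fold criterion called 15 members (7.24% of all genes), and without replicate 3 it called 8 (4.58%). Without ET replicate 2, which enters only the shared estimate of spread, 10 members passed the adjusted threshold (4.32% of all genes).

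K412R had less Hoxc8 and Hoxb9 than WT, both past the adjusted threshold. With edgeR 2 of 32 members (6.25%) were called after adjustment, both lower, where 2.04% of all genes were called and 0.695% were lower. By the 2-fold criterion 16 members (50%) were called, against 5.02% of all genes. There were 9 higher members (28.1%, against 1.66%), among them Hoxa3, Hoxa4, Hoxa5, Hoxb3, Hoxb4, Hoxb5, Hoxc4 and Hoxc5, and 7 lower members (21.9%, against 3.36%), Hoxa7, Hoxb9, Hoxc6, Hoxc8, Hoxc9, Hoxc10 and Hoxd4. The ranges of 19 members (59.4%) did not overlap, against 31.1% of all genes.

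Hoxc8 had 0.891, 1.02 and 0.617 CPM in K412R and fell by 2.86 on the log2 scale (SE 0.50, adjusted p = 0.0211), a 7.25-fold difference. The call was lost in 5 of 12 fits that each left out 1 library, those without WT replicates 2 or 3 or any K412R library, where the log2 value stayed between -3.03 and -2.64 over all 12 fits. Hoxb9, which acts at thoracic levels and on the ribs, had 9.50, 3.57 and 7.70 CPM in WT and 0.669, 1.13 and 1.29 CPM in K412R, a 6.78-fold fall (log2 fold change -2.76, SE 0.60, adjusted p = 0.0415). Its levels in ET were 4.09, 4.84 and 2.78 CPM, and 1.46, 7.11 and 1.90 CPM in the K238R-labelled libraries, so K412R was the lowest group. Over the same 12 fits its log2 value lay between -3.07 and -2.49, and the call held in 4, those without ET replicate 2, ET replicate 3 or replicates 1 or 2 of the K238R-labelled libraries. The count of adjusted calls was thus 0 without WT replicate 2, WT replicate 3 or any 1 of the 3 K412R libraries, 1 without ET replicate 1 or replicate 3 of the K238R-labelled libraries, and 12 without ET replicate 2 (8.13% of all genes).

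The other lower members by the 2-fold criterion belonged to paralogs 4, 6, 7, 9 and 10. Hoxc9, which sets the thoracic motor columns, had 3.49, 1.62 and 4.56 CPM in WT and 0.334, 0.792 and 1.01 CPM in K412R (log2 fold change -2.20, adjusted p = 0.0714). Its other libraries overlapped with both, at 1.99, 2.54 and 0.890 CPM for ET and 1.02, 2.78 and 0.923 CPM under the K238R label. Hoxc6, of the forelimb level, had 4.61, 2.34 and 3.48 CPM in WT and 1.5, 1.87 and 1.18 CPM in K412R (log2 fold change -1.20, adjusted p = 0.0947), next to 4.26, 2.24 and 2.39 CPM for ET and 1.73, 2.94 and 1.74 CPM under the K238R label. Hoxa7, a thoracic gene, had 6.18, 4.52 and 7.70 CPM in WT and 2.28, 2.88 and 3.09 CPM in K412R (log2 fold change -1.18, adjusted p = 0.114). ET overlapped with WT and lay above K412R, at 5.29, 4.60 and 3.50 CPM, and the K238R-labelled libraries had 1.94, 6.28 and 2.66 CPM. Hoxc10 gave -1.78 (SE 0.66, adjusted p = 0.148), and its K412R libraries lay below all WT libraries. Hoxd4, a retinoic acid target of the hindbrain and neck, had 2.98, 2.23 and 2.45 CPM in WT and 0.669, 0.905 and 1.29 CPM in K412R (log2 fold change -1.44, adjusted p = 0.128), opposite in sign to Hoxa4, Hoxb4 and Hoxc4. ET had 4.04, 2.48 and 1.67 CPM of Hoxd4, all above K412R, and the K238R-labelled libraries had 0.863, 3.06 and 3.96 CPM.

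Among the higher members of K412R, Hoxc4 was higher by 2.24 (SE 0.64, adjusted p = 0.0833), Hoxb5 by 2.01 (adjusted p = 0.0932), Hoxa4 by 1.94 (adjusted p = 0.0619), Hoxc5 by 1.92 (adjusted p = 0.126) and Hoxb4 by 1.61 (adjusted p = 0.0940) on the log2 scale. Hoxa4, at 13.4, 16.3 and 14.9 CPM, and Hoxb4, at 15.2, 15.6 and 12.9 CPM, were both tight and without overlap with WT. Hoxb3 (36.8, 33.2 and 31.2 CPM), Hoxa3 (25.5, 27.4 and 26.9 CPM), Hoxa5 (13.8, 22.7 and 12.1 CPM) and Hoxb2 (13.9, 16.2 and 13.4 CPM) were likewise all above WT, with log2 fold changes of 1.32, 1.11, 1.16 and 0.88. Hoxd3, at 7.02, 7.01 and 4.60 CPM, gave 0.34 (adjusted p = 0.686).

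**Figure D4:**
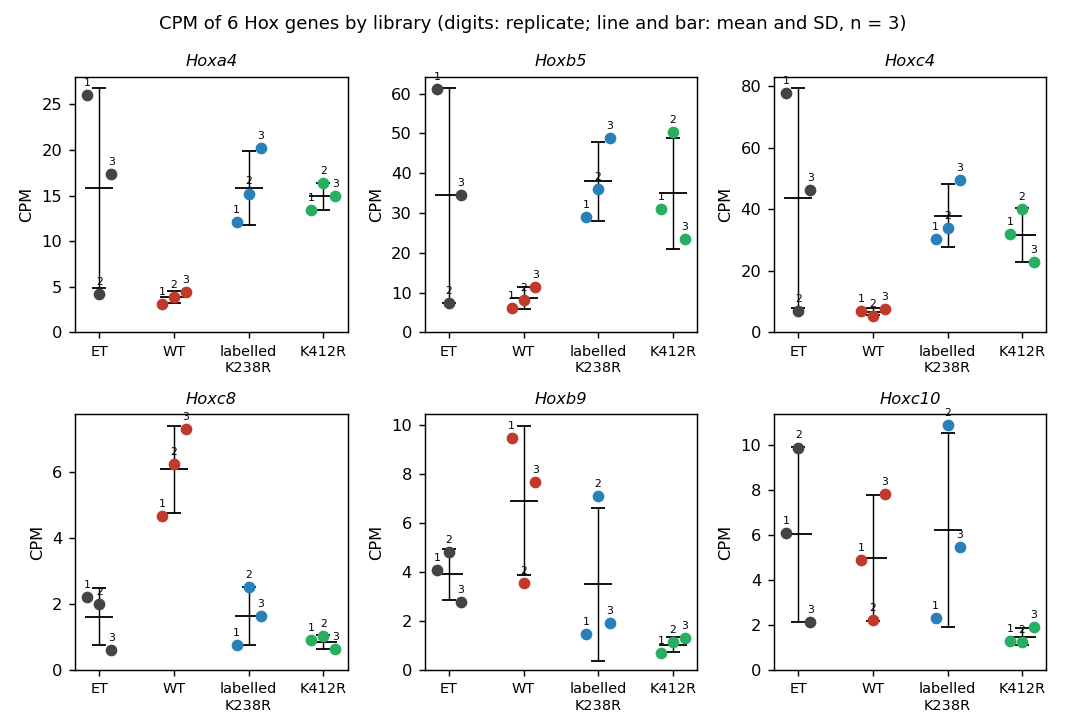
CPM (y axis, linear from 0) of 6 Hox genes in each library by group, with digits for the replicate number and the mean and SD (n = 3) as a long line and bar. Hoxa4, Hoxb5 and Hoxc4 are low in WT and ET replicate 2, Hoxc8 is highest in the 3 WT libraries, and Hoxb9 and Hoxc10 are low in all 3 K412R libraries.

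Within the Hoxc cluster, the ratio of Hoxc4 to Hoxc8 counts put both directions into 1 number for each library. It is not corrected for length, and it is compared only between libraries. The ratio was 35.2, 3.41 and 75.8 for ET, 1.47, 0.875 and 1.05 for WT, 40.3, 13.6 and 30.4 in the K238R-labelled libraries and 35.9, 39.5 and 36.9 in K412R. Every WT library lay below every other library, ET replicate 2 included, and the 3 K412R libraries nearly coincided. For Hoxb5 over Hoxb9 the ratio was 15.0, 1.52 and 12.5 for ET, 0.633, 2.30 and 1.49 for WT, 19.9, 5.08 and 25.7 in the K238R-labelled libraries and 46.3, 44.6 and 18.2 in K412R, and here ET replicate 2 lay within the WT range. The pair of genes in each ratio was chosen after their values were seen, so the ratios describe and do not test.

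Against ET, the K238R-labelled libraries had 0 of 32 members called after adjustment with edgeR (0% of all genes), 0 with an unadjusted p under 0.05 (5.61% of all genes) and 0 by the 2-fold criterion (0.951% of all genes). With DESeq2 the adjusted count was 0 as well. The log2 fold changes lay between -0.76 and 0.36 with a median of -0.25, and without ET replicate 2 the median was -0.47, with 0 members called by either threshold (2.15% of all genes by the 2-fold criterion). With standard errors of 0.31 to 1.18, these estimates leave room for differences in either direction and do not show that the groups were alike. K412R also had 0 members called after adjustment (0% of all genes), with 10 at an unadjusted p under 0.05 (31.2%, against 7.91%). Its median log2 fold change against ET was -0.81, with 31 of 32 members negative, and without ET replicate 2 it was -0.93.

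By the 2-fold criterion K412R differed from ET in 9 members (28.1%), against 1.57% of all genes, all lower (0.864% of all genes were lower and 0.706% higher). They were Hoxa6, Hoxa10, Hoxb1, Hoxb8, Hoxb9, Hoxc9, Hoxc10, Hoxd4 and Hoxd10. Of the 10 tested posterior members all had a negative log2 fold change, with a median of -1.82, and Hoxd10 had the largest at -3.84 (SE 1.37, adjusted p = 0.552), on 1, 2 and 13 counts in K412R. Hoxb9 gave -1.91 (SE 0.60, adjusted p = 0.462) and Hoxc10 -2.01 (adjusted p = 0.488), and both lay below all ET libraries. The paralog 4 and 5 genes of Hoxa, Hoxb and Hoxc lay between -0.71 at Hoxc5 and 0.04 at Hoxb5, with standard errors of 0.45 to 0.61. Without ET replicate 2, Hoxa4 gave -0.51, Hoxa5 -0.89, Hoxb4 -0.88 and Hoxb5 -0.42. These estimates do not show that K412R and ET were alike in these genes. The ranges of 8 members (25%) did not overlap, all lower, against 10.8% of all genes (5.74% lower and 5.01% higher). Without K412R replicate 1 the 2-fold criterion called 5 members (1.72% of all genes), and without ET replicate 2 it called 8 (4.54%), with Hoxc10 at -1.44.

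Hoxa9, a thoracic and lumbar gene known from leukaemia, had 0 counts in replicate 1 of the K238R-labelled libraries, which allows up to 0.162 CPM by counting alone. In that library 22 counts were assigned to a separate symbol, the read-through transcript Hoxa10-hoxa9, which also held 36 and 12 counts in ET replicates 2 and 3 and 6 in K412R replicate 3. With the read-through counts added, the gene stood at 1.19, 4.22 and 3.20 CPM in the K238R-labelled libraries. The zero thus stood beside counts at an overlapping symbol. The same limit applies to other members that share exons or overlap antisense transcripts, since the strand setting of the counting is not given in the sources used here.

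The other genes of the pathway were read in the same fits. Of 9 cofactors of the TALE family, which bind DNA with Hox proteins, 0 passed the adjusted threshold in WT against ET and 1 passed in K412R against WT. That gene was Pbx3, at 108 CPM in ET, 147 in WT, 127 in the K238R-labelled libraries and 104 in K412R on average (log2 fold change -0.52, SE 0.09, adjusted p = 0.0211 in edgeR). Of 10 activators of Hox genes in the posterior embryo, 7 could be tested and 1 passed, again in K412R against WT: T (Brachyury), the mesoderm and tail bud factor, with 20.7, 7.14 and 4.45 CPM in WT and 43.8, 35.8 and 53.4 CPM in K412R (log2 fold change 2.03, SE 0.42, adjusted p = 0.0367). The call of T was lost in 7 of 12 fits that each left out 1 library, over which its log2 value lay between 1.68 and 2.89. T stood at 34.6, 42.3 and 35.4 CPM in ET, so ET replicate 2 was not low in this gene. Cdx1, Cdx4 and Wnt3a had too few counts to test, and Cdx2 had 13, 17 and 11 counts in ET and 10, 1 and 0 in WT.

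Of 15 retinoic acid genes, 14 were tested and 1 passed, in K412R against WT. Cyp26b1, an enzyme that removes retinoic acid, had mean levels of 33.8 CPM in ET, 58.3 in WT, 47.3 in the K238R-labelled libraries and 33.6 in K412R. Its log2 fold change was -0.82 (SE 0.19, adjusted p = 0.0474 in edgeR), a call lost in 8 of 12 fits that each left out 1 library. Cyp26a1, of the same list, ran the other way, with 1.22 in K412R against WT (adjusted p = 0.0809 in edgeR). In WT against ET, Cyp26a1 gave -0.93 (adjusted p = 0.126 in edgeR). The median over the 14 tested genes was 0.10 in K412R against WT. None of 21 Polycomb and Trithorax subunits, which keep Hox clusters closed or open, passed in any comparison, and their median log2 fold change was -0.35 in WT against ET, 0.29 in the K238R-labelled libraries against WT and 0.21 in K412R against WT, next to -0.01, 0.00 and 0.01 over all genes.

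Long noncoding RNAs of the clusters were scarce, with 13 of 15 listed in the files, 5 tested and Hottip at 0 counts in all 12 libraries. Halr1, of the Hoxa region, passed in K412R against WT (log2 fold change 1.63, SE 0.23, adjusted p = 0.0103). It had 7.50, 5.54 and 6.95 CPM for ET, 2.98, 3.29 and 1.83 for WT, 7.49, 6.56 and 5.70 in the K238R-labelled libraries and 9.41, 6.84 and 9.15 in K412R. All 3 WT libraries lay below all other 9, ET replicate 2 included, and the adjusted p was 0.0870 in WT against ET and 0.0608 in the K238R-labelled libraries against WT. Of 14 tested genes that flank the clusters, Atp5g2 beside Hoxc passed in K412R against WT (105 CPM in WT and 162 in K412R, log2 fold change 0.62, SE 0.11, adjusted p = 0.0222). Ttll6 beside Hoxb was lower in the K238R-labelled libraries than in WT by the 2-fold criterion (log2 fold change -1.29, adjusted p = 0.202). In WT against ET, 5 of the 14 had an unadjusted p under 0.05, where 29.1% of all genes did.

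Atp5g2 and the Hoxc genes lie on chromosome 15, and in K412R against WT the 723 tested genes of that chromosome had a median log2 fold change of 0.29, with 43 higher and 2 lower after adjustment, against a median of 0.01 over all genes. The medians of chromosomes 6, 11 and 2, which hold Hoxa, Hoxb and Hoxd, were 0.01, 0.00 and 0.01. In the same comparison Hoxc4 gave 2.24 and Hoxc5 1.92, while Hoxc6 gave -1.20, Hoxc8 -2.86, Hoxc9 -2.20 and Hoxc10 -1.78. The part of the chromosome shift in these Hoxc values was not tested.

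Of 11 lists of tissue markers, 3 genes passed, all in K412R against WT and all lower. Each was 1 of 10 tested genes of its list, where 2.04% of all genes were called and 0.695% were lower. This count is not read as a result about the tissues. Prrx1, of limb mesenchyme, gave -0.78 (SE 0.17, adjusted p = 0.0420), with mean levels of 28.8 CPM in WT and 17 CPM in K412R. Dpt, of fibroblasts, gave -2.80 (SE 0.57, adjusted p = 0.0358), with 12.2 and 1.78 CPM. Elavl3, of neurons, gave -0.70 (SE 0.12, adjusted p = 0.0188), with 296 and 185 CPM. In the same comparison the median log2 fold change was 0.16 over the limb list, -0.15 over the fibroblast list and -0.64 over the neuronal list. In the limb list, Shh was higher (1.86) and Grem1 lower (-1.48) by the 2-fold criterion. A single called gene thus does not stand for its list. Over fits that each left out 1 of 12 libraries, these calls were lost in 8 for Prrx1, 6 for Dpt and 4 for Elavl3. Pbx3 and Atp5g2 lost theirs in 5 and Halr1 in 3. Dpt was also at 5.86, 7.55 and 1.95 CPM in ET and 9.16, 15.4 and 12.1 CPM in WT. The 3 WT libraries held the 3 highest values. None passed in any comparison among the tested genes of the lists for forebrain and midbrain (12 tested), hindbrain and spinal cord (16), somites (8) and urogenital tissue (9). The same held for hindgut (7), blood (7), skeletal muscle (10) and residual pluripotent cells (10). At the 2-fold criterion, 6 of 10 skeletal muscle genes were lower in K412R than in WT, where 3.36% of all genes were.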

How the data were processed

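RNA of 12 teratomas was sequenced with the CORALL RNA-seq V2 kit. The authors trimmed reads with Fastp, aligned them with STAR and quantified genes with Salmon on build GRCm39, and deposited estimated counts per gene, which were whole numbers. The submitters' processing notes also name GATK. Versions of these tools were not used here. The annotation, the strand setting and any collapsing by molecular identifier are not given in the sources used here.

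CPM were computed on the library totals of 16957677 to 18546100 counts, and 3 counts were taken as the floor. The 38986 symbols were filtered with edgeR's filterByExpr (minimum count 10), leaving 18405 genes. Normalization used TMM factors. One model with the 4 groups was fitted in edgeR 4.0.16 (R 4.3.3, limma 3.58.1) with the robust quasi-likelihood test, and p-values were adjusted by Benjamini-Hochberg over all 18405 genes. A call was an adjusted p under 0.05, or the study's criterion of a 2-fold change at unadjusted p under 0.05. DESeq2 1.42.0 and the other settings of the closing section were alternatives. The edgeR fit was run on simulated counts with 200 genes changed 4-fold in WT, read for WT against ET alone and without an outlying library. DESeq2 and the other settings were not simulated. Intervals of shares are Wilson intervals at 95% and cover counting error only.

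Named genes were members called after adjustment, members that met the 2-fold criterion in a comparison of the study, and the member with the highest mean CPM of each cluster, with up to 4 genes of each list called after adjustment. Other genes, among them Hoxd10, Hoxa11 and Hoxd11, were named after their values were seen. Hox genes and the 17 gene lists were chosen with earlier results of these data known. Lengths were those of GENCODE M21 transcripts, start regions came from RefSeq (GRCm38.p6), and chromosomes were matched by symbol for 96.7% of tested genes. The 7 untested members were described by counts only. One member enters the counts and sums but is not reported here.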

Additional observations from a re-analysis of the deposited data

How the results depend on the processing

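Adjusted calls among the members differed between settings and with single libraries. For WT against ET, the K238R-labelled libraries against WT and K412R against WT, edgeR called 0, 0 and 2 members (0.0489%, 0.223% and 2.04% of all genes). DESeq2, run without edgeR's low-count filter but with its own, called 11, 7 and 12 of 39 (6.16%, 2.53% and 5.31%). With the 2 groups of a comparison fitted alone, the second gave 8 (2.17%) and the third 16 (10.6%), and edgeR with no low-count filter gave 0, 0 and 1. Leaving out 1 library at a time gave 0 to 15, 0 to 10 and 0 to 12 adjusted calls, and 8 to 15, 8 to 15 and 12 to 17 by the 2-fold criterion. It gave 0 to 1 by the 2-fold criterion for the K238R-labelled libraries against ET and 5 to 13 for K412R against ET, with 0 adjusted calls in both. With both ET replicate 2 and WT replicate 1 left out, an alternative chosen after seeing the data, the first 3 comparisons had 14, 11 and 12 adjusted calls, K412R against ET had 2, and the K238R-labelled libraries against ET had 1 by the 2-fold criterion. The share of all genes called also changed between settings. It is given for some of the settings above and not for every setting counted here. These counts therefore describe the settings and are not read as results about the members. The cause of the differences between settings was not tested.

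With the replicate number as a replicate block, WT against ET had 3 adjusted calls and K412R against ET had 5 by the 2-fold criterion. These counts, too, describe the setting and are not read as results about the members. Deviations of the 18 same-numbered pairs correlated between -0.26 and 0.39, and 6 of 12 libraries correlated best with their own number. These correlations do not settle whether the numbers pair the samples.

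Of 140 alternative values of 28 sums, 135 stayed within the SD. The 5 others were all without Gm26917, which took 7.47% to 13.9% of counts: Hoxa in WT (57.5 CPM) and K412R (97.6 CPM), Hoxd in K412R (12.3 CPM) and the anterior class in WT (61.7 CPM) and K412R (118 CPM). Of 44 Hox comparisons followed in full, by the rule for named genes, none changed sign; with 11 of other genes, 115 values gained and 77 lost a call. Of 51 other Hox comparisons, 29 changed sign under some setting, among them Hoxd4 in WT against ET (0.32 without ET replicate 1) and, in K412R against ET, Hoxc5 (0.05 without it) and Hoxb5 (-0.42 without ET replicate 2). Members at or near the floor of 3 counts allow no statement on change.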
